A study of Mus musculus with 6 samples.

Results

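Tmem176a and Tmem176b, a pair of genes for membrane proteins, and the neighbouring Gimap genes, a family of lymphocyte GTPases, lie together on mouse chromosome 6 and were followed through sorted regulatory T cells (Tregs). The 10 genes were found by symbol among the 15944 genes of the deposited table: Tmem176a, Tmem176b, Gimap1, Gimap3, Gimap4, Gimap5, Gimap6, Gimap7, Gimap8 and Gimap9. They were chosen by their fold changes between the same 6 libraries, seen beforehand, so their differences between the groups and the calls of the fit across all genes are a description and support nothing further. The libraries are bulk RNA-seq of Tregs sorted from spleens of C57BL/6 mice, in which red and green fluorescent reporters mark Foxp3 and RORγt. RORγt+ Tregs (3 libraries) were CD3+ CD4+ cells positive for both reporters. CCR6+ RORγt- Tregs (3 libraries), called RORγt- below, were CD3+ CD4+ cells positive for the Foxp3 reporter and negative for the RORγt reporter that also stained for CCR6, a chemokine receptor that was not part of the other gate. The labels name no treatment, give no age and do not say whether libraries came from separate animals, so the replicate error behind each test could be technical only. Foxp3, the defining transcript of Tregs, had 10835, 11072 and 12609 normalized counts in RORγt+ libraries, against 9914, 10187 and 9789.7 in RORγt- libraries.

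Values are normalized counts, that is, read counts scaled between libraries by the authors. Column totals lay between 11325902 and 11890770, and from the spacing of low values the libraries hold roughly 9170000 to 14500000 reads. RORγt+ replicate 3 stood apart. It was the shallowest library, it listed 1247 genes at 0 where the others listed 438 to 638, and its log2 values correlated with those of the others at 0.932 to 0.938, while the other 5 correlated with each other at 0.947 to 0.967. The fold changes of the pair and of Gimap8, the profiles and the myeloid sum, which turn on it, are given with and without it.

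TMEM176A and TMEM176B cross the membrane several times, are related in sequence to the MS4A family that includes CD20, and sit on intracellular vesicles. In the mouse they are known from dendritic cells, where TMEM176B acts as a cation channel, and from lymphocytes of the type 17 kind, whose master regulator is RORγt. GIMAP proteins are GTPases of internal membranes. They are abundant in resting T cells, and loss of GIMAP5 in mice or rats shortens the life of T cells.

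The cluster covers 199.8 kb of GRCm38, chr6:48647234-48847071, in the order Gimap8, Gimap9, Gimap4, Gimap6, Gimap7, Gimap1, Gimap5, Gimap3, Tmem176b and Tmem176a. Gimap6, Gimap3 and Tmem176b lie on the minus strand and the other genes on the plus strand. A stretch of 62.97 kb separates Gimap3 from Tmem176b. Tmem176b (chr6:48833818-48841496) and Tmem176a (chr6:48840919-48847071) point away from each other, and their gene bodies overlap by 578 bases at their 5′ ends. Between the outermost RefSeq start site of Tmem176b and the first of Tmem176a lie 108 bases. The 250 bases before those start sites are shown because both genes were higher in the same libraries and the stretches overlap. The same stretch is shown for Gimap7 and Gimap4, the Gimap genes with the largest and the smallest fold change. Capitals mark GGAAGT or TGTGGT on either strand, letters known as cores bound by ETS and RUNX factors (RefSeq, GRCm38.p6; each sequence runs 5′ to 3′ in the direction of its gene).
Tmem176a (chr6:48841233-48841482, plus strand): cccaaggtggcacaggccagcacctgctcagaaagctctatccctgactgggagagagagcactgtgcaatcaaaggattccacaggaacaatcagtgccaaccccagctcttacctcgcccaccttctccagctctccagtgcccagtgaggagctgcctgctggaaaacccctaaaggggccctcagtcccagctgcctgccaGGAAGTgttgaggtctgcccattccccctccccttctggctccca
Tmem176b (chr6:48841375-48841624, minus strand): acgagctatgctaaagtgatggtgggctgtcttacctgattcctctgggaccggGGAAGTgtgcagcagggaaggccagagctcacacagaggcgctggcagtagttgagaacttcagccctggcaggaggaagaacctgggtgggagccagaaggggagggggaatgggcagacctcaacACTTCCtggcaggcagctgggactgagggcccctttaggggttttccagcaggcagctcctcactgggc
Gimap7 (chr6:48718371-48718620, plus strand): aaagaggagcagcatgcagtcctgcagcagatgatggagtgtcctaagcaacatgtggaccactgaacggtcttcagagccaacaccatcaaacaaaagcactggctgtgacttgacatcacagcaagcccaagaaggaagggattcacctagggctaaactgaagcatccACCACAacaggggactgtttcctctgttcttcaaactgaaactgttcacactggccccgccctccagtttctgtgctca
Gimap4 (chr6:48684328-48684577, plus strand): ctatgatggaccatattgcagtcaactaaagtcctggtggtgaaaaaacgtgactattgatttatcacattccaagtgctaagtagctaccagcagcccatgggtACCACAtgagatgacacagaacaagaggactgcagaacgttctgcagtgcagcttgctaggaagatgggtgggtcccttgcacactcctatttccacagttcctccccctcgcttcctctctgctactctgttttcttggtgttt

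All 10 genes had a RefSeq entry, with 14 start sites, and 5 motifs were searched in the 250 bases before each site on both strands. GGAAGT occurred before 5 of the 14 sites, in Tmem176a, Tmem176b, Gimap5 and Gimap6, and before 23.3% of 13103 start sites of measured genes. TGTGGT occurred before 3 sites, of Gimap1, Gimap4 and Gimap7, and before 11.2% of all. AGGTCA, a half-site of nuclear receptors, occurred before 0 of the 14 sites (11.1% of all), and GGGTCA before 1, an inner Tmem176b site that is not shown (12.1% of all). The RORE, a longer form that contains AGGTCA or GGGTCA and is known to bind ROR factors, occurred before 0 of the 14 sites and before 0.351% of all. These are matches of letters within 1 window and not binding sites. The stretches of Tmem176a and of the outermost Tmem176b site overlap. The GGAAGT match shown for Tmem176a lies on the same bases as the Tmem176b match nearer its start site, read from opposite strands. The farther Tmem176b match lies on the bases of a match before an inner Tmem176a site that is not shown. Those sites are therefore not separate cases.

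Tmem176a was low in RORγt- Tregs and about an order of magnitude higher in RORγt+ Tregs. It had 143, 147 and 338 normalized counts in RORγt+ replicates 1 to 3, against 18.7, 24.4 and 18.9 in RORγt- replicates 1 to 3. Every RORγt+ library lay above every RORγt- library, and RORγt+ replicate 3 was the highest. The means were 209 ± 111 in RORγt+ Tregs and 20.7 ± 3.25 in RORγt- Tregs (SD, n = 3 each), a ratio of 10.1. In limma on log2(value + 1), adjusted by Benjamini-Hochberg over all genes, the log2 fold change was 3.16 ± 0.38 (SE, adjusted p = 0.0219). These values rest on roughly 134, 148 and 270 reads in RORγt+ libraries and 18, 27 and 23 reads in RORγt- libraries. In bulk RNA, fewer cells that hold a transcript and less of it per cell cannot be told apart.

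Tmem176b had the same order of groups. It had 189, 192 and 497 normalized counts in RORγt+ libraries, against 36.7, 72.0 and 28.5 in RORγt- libraries. The groups did not overlap, RORγt+ replicate 3 was again the highest, and RORγt- replicate 2 was the highest of its own group. The means were 292 ± 177 in RORγt+ Tregs and 45.7 ± 23.1 in RORγt- Tregs (SD, n = 3 each), a ratio of 6.39. The log2 fold change was 2.60 ± 0.48 (SE) and missed the threshold in limma (adjusted p = 0.0822). Its 95% interval ran from 1.48 to 3.73 and that of Tmem176a from 2.27 to 4.06, so the intervals overlap. Both genes had a log2 fold change of at least 2 and groups without overlap, as had 1.15% and 8.31% of all genes in the same direction.

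**Figure D1:**
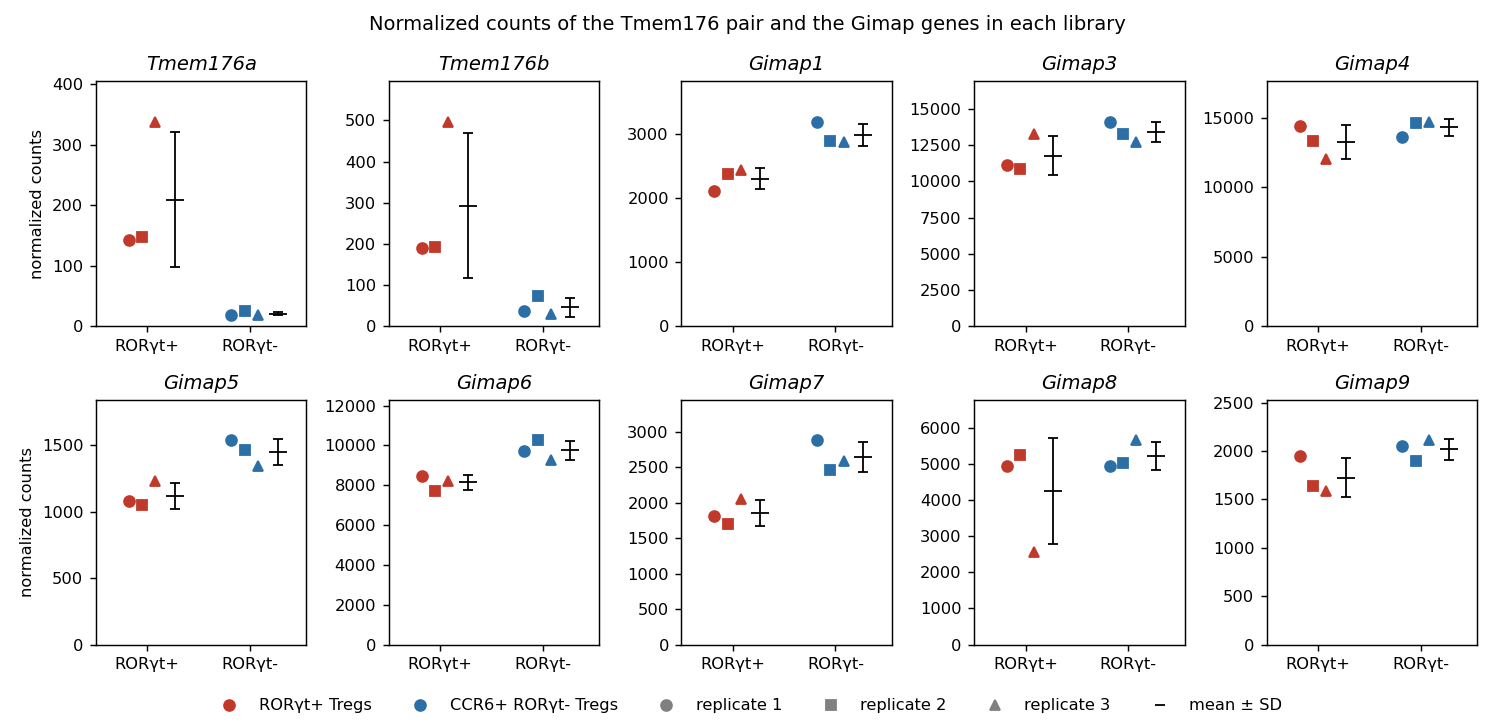
Normalized counts of the 10 genes in the 3 RORγt+ and the 3 CCR6+ RORγt- libraries, 1 point per library, with the mean and SD of each group. For Tmem176a and Tmem176b all RORγt+ points lie above all RORγt- points, with RORγt+ replicate 3 highest at 338 and 497; for Gimap8 that library is lowest at 2576.

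Without RORγt+ replicate 3 both genes kept their direction. Tmem176a then had a log2 fold change of 2.76 ± 0.26 (SE, limma adjusted p = 0.0140) and Tmem176b of 2.14 ± 0.40 (adjusted p = 0.0734), in a fit that called 1.09% of all genes. The ratios of the means were then 7.0 for Tmem176a and 4.16 for Tmem176b. The call of Tmem176a was lost without RORγt+ replicate 1 (limma adjusted p = 0.0655) or 2 (0.0801), and without RORγt- replicate 1 (0.133), 2 (0.129) or 3 (0.117). With all libraries Tmem176a was the only one of the 10 genes called, and limma called 0.564% of all genes, 0.32% as higher and 0.245% as lower in RORγt+ Tregs. The choice of the genes used this contrast, so nothing is read from that count.

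Within every library Tmem176a had fewer normalized counts than Tmem176b. The ratio of Tmem176a to Tmem176b was 0.754, 0.767 and 0.680 in RORγt+ libraries, against 0.510, 0.339 and 0.663 in RORγt- libraries. The RORγt+ ratios all lay above the RORγt- ratios, with replicate 3 of each group closest. The log2 ratio was higher by 0.56 in RORγt+ Tregs, which restates how the fold changes of the pair differ and is a description. The exact two-sided permutation p of 0.1 is the smallest that 3 against 3 allows, so the design cannot pass and nothing is read from it. With 5 in place of 1 added to the values, the permutation p was 0.2. Without RORγt- replicate 2 the difference was 0.30. Of the 31-base windows of Tmem176a transcripts, 0.828% also occur, on either strand, in Tmem176b transcripts.

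The Gimap genes differed far less, and in the other direction. All 8 had log2 fold changes below 0, between -0.51 for Gimap7 and -0.11 for Gimap4, with a median of -0.31. The median over all genes was -0.01, with 51.2% below 0. Over the 2542 genes with a mean of at least 1000 normalized counts, a level that all 8 exceed, the median was -0.02, with 53.8% below 0. In limma 0 of the 8 were called, and 4 had an unadjusted p under 0.05, against 10.9% of all genes in either direction and 6.12% in the direction of lower values in RORγt+ Tregs. The summed Gimap level was 45960, 43920 and 43450 normalized counts in RORγt+ libraries, against 52090, 51930 and 51350 in RORγt- libraries. As a share of each column total this was 0.390% ± 0.0117 in RORγt+ Tregs and 0.446% ± 0.0119 in RORγt- Tregs (SD, n = 3 each), and the groups did not overlap.

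Gimap7, whose human form is known to hydrolyse GTP as a dimer, had the lowest fold change of the family (chr6:48718621-48724636). It had 1812, 1698 and 2050.4 normalized counts in RORγt+ libraries, against 2878, 2455 and 2594 in RORγt- libraries. Every RORγt+ library lay below every RORγt- library, and the ratio of the means was 0.701. The log2 fold change was -0.51 ± 0.13 (SE, 95% interval -0.81 to -0.21, limma adjusted p = 0.197).

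Gimap1, which mature lymphocytes of mice need to survive, had 2114, 2372 and 2435 normalized counts in RORγt+ libraries, against 3193, 2889.5 and 2879 in RORγt- libraries. Gimap5, a protein of lysosomal membranes, had 1079.7, 1051 and 1229 in RORγt+ libraries, against 1538, 1464 and 1347 in RORγt- libraries. For both genes the groups did not overlap and the log2 fold change was -0.37, with limma adjusted p of 0.304 for Gimap1 and 0.3425 for Gimap5. Gimap6, linked to autophagy through an ATG8 family protein, had 8466, 7729 and 8231 in RORγt+ libraries, against 9725, 10258 and 9284 in RORγt- libraries (log2 fold change -0.26 ± 0.11, SE, adjusted p = 0.442). Gimap1, Gimap5, Gimap6 and Gimap7 were thus the 4 of 8 Gimap genes whose groups did not overlap, with RORγt+ Tregs the lower, as in 9.81% of all genes and in 12.1% of the genes with a mean of at least 1000. In either direction, 6 of the 10 genes and 18.1% of all genes had groups without overlap.

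The other 4 Gimap genes overlapped between the groups. Gimap4, known in rodents to speed the death of T cells, had 14456, 13317 and 12039 normalized counts in RORγt+ libraries, against 13635, 14649 and 14729.8 in RORγt- libraries. Its log2 fold change of -0.11 had a 95% interval from -0.39 to 0.16, which spans 0. Gimap3, a close relative of Gimap5 in the mouse, had 11142, 10852 and 13307.5 in RORγt+ libraries, against 14115, 13294 and 12738 in RORγt- libraries (log2 fold change -0.19). Gimap9, another GTPase of the family, had 1954, 1642 and 1583 in RORγt+ libraries, against 2048, 1894 and 2111 in RORγt- libraries (log2 fold change -0.23). In each of these genes, 1 RORγt+ library lay above the lowest RORγt- library.

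Gimap8, which has repeated GTPase domains, rested on 1 library. It had 4939, 5259 and 2576 normalized counts in RORγt+ libraries, against 4957, 5031 and 5662 in RORγt- libraries. RORγt+ replicate 3 alone was low. The log2 fold change of -0.36 ± 0.26 (SE) was -0.03 ± 0.09 without that library. Gimap7 then stood at -0.59 ± 0.10 (SE, limma adjusted p = 0.0619), Gimap3 at -0.28 ± 0.08, and the median of the 8 genes at -0.28. In that fit 5 of the 8 Gimap genes, and 36.9% of all genes, had groups without overlap.

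**Figure D2:**
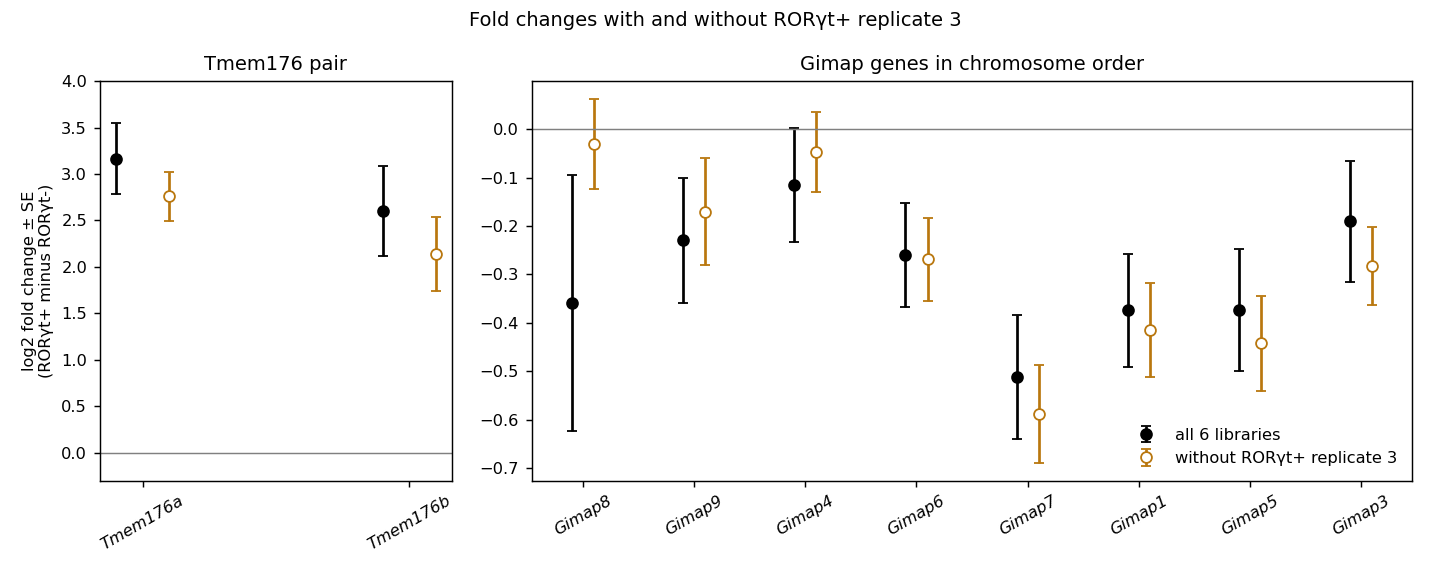
Log2 fold changes (RORγt+ minus RORγt-, ± SE) from limma for the Tmem176 pair and the 8 Gimap genes, with all libraries and without RORγt+ replicate 3; the panels have different vertical scales. Gimap8 stands at -0.36 with that library and at -0.03 without it, and Tmem176a and Tmem176b stay above 2.

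Several of these genes share sequence, and how reads were divided between them is not stated. Windows were matched on either strand. Of the 31-base windows of Gimap1 transcripts, 33.9% match the antisense gene Gimap1os, which is not analysed here. Gimap3 and Gimap5 share 335 windows, 13.2% of those of Gimap3 and 8.02% of those of Gimap5, so the values of Gimap1, Gimap3 and Gimap5 are the less certain ones. Gimap4 and Gimap9 share 0 windows with any other gene. Gm28053 (chr6:48718607-48752644, plus strand) is an annotated transcript unit that overlaps Gimap7, Gimap1 and Gimap5, and is given for its position, after its values were seen. It had 489, 485 and 336 normalized counts in RORγt+ libraries, against 621, 577 and 571 in RORγt- libraries (log2 fold change -0.45 ± 0.18, SE, limma adjusted p = 0.431). Its groups did not overlap.

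Per kb of exon, the Gimap genes kept much the same order in every library. Gimap4 came first in all 6, at 7224 ± 658 normalized counts per kb in RORγt+ Tregs and 7805 ± 332 in RORγt- Tregs (SD, n = 3 each), and ranked 63 to 90 among all genes. Gimap3 came next, at 4566 ± 521 per kb in RORγt+ Tregs and 5193 ± 269 in RORγt- Tregs, ahead of Gimap6 at 2329 ± 108 and 2790.5 ± 139. In RORγt+ and RORγt- Tregs, Gimap8 stood at 1151 ± 396 and 1409.9 ± 105 per kb, Gimap9 at 1051 ± 121 and 1229 ± 68.1, Gimap7 at 797 ± 77.4 and 1136 ± 92.7, and Gimap1 at 751 ± 55.4 and 972 ± 58.0. The 3 RORγt- libraries had these 4 genes in the same order, while Gimap8 came last of them in RORγt+ replicate 3 and Gimap1 came before Gimap7 in RORγt+ replicate 2. Gimap8 and Gimap9, and Gimap7 and Gimap1, overlapped within their SDs in RORγt+ Tregs. Gimap5 was last of the family in every library, at 269.9 ± 23.1 per kb in RORγt+ Tregs and 349 ± 23.1 in RORγt- Tregs. The pair lay below it in every library, Tmem176b at 123 ± 74.6 per kb in RORγt+ Tregs and 19.3 ± 9.76 in RORγt- Tregs, and Tmem176a at 54.9 ± 29.2 and 5.43 ± 0.85.

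**Figure D3:**
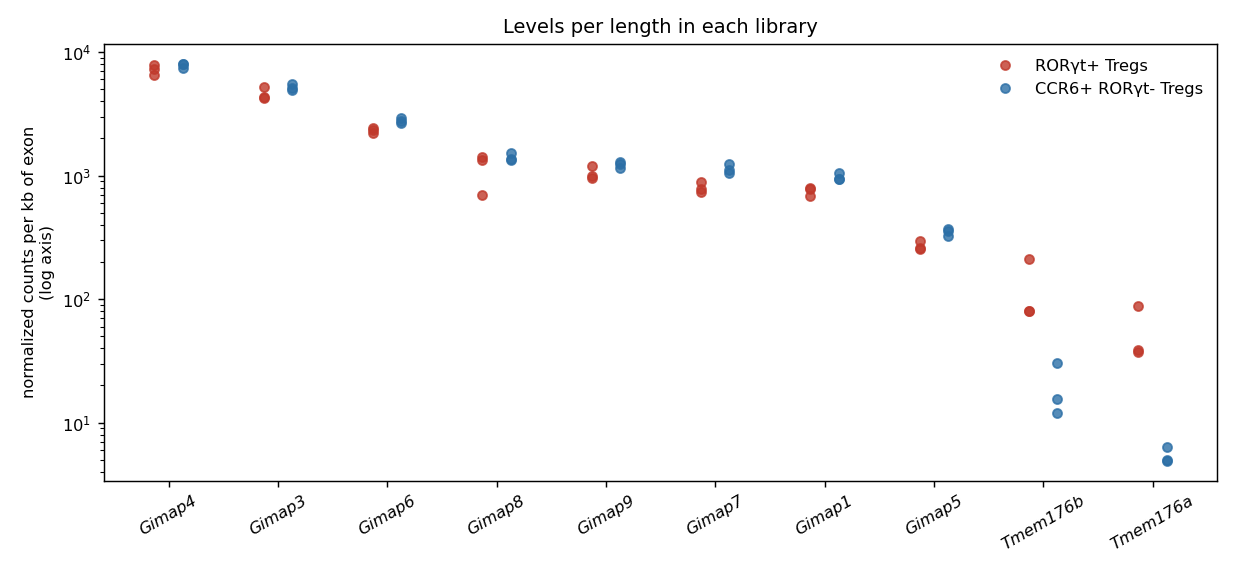
Normalized counts per kb of exon (log axis) of the 10 genes in each RORγt+ and each CCR6+ RORγt- library. Gimap4, Gimap3 and Gimap6 lead in both groups, and Tmem176b and Tmem176a lie lowest, with the widest distance between the groups.

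Profiles over the 6 libraries were compared by the root mean square difference of log2(value + 1), each gene centred on its own mean, among genes with a mean of at least 50. Such distances include the difference between the groups, so they restate in large part the fold changes by which the genes were chosen. Nearest to Tmem176a outside the cluster were Nr1d1, which encodes the circadian repressor REV-ERBα (0.159), the membrane protein gene Stom (0.270), the serine protease gene Prss12 (0.321), Fam20a (0.349) and Tdrkh (0.394). Nr1d1 had 264, 288 and 545 normalized counts in RORγt+ libraries, against 42.6, 51.3 and 42.9 in RORγt- libraries. Like the pair, it was highest in RORγt+ replicate 3. Nearest to Tmem176b were Prss12 (0.238), Nr1d1 (0.371), S100a4 (0.445), Stom (0.523) and Ccr4 (0.527). The distance within the pair was 0.399, which put Tmem176b at rank 7 for Tmem176a and Tmem176a at rank 3 for Tmem176b. Without RORγt+ replicate 3 the distance within the pair was 0.428, at rank 21 for Tmem176a and rank 22 for Tmem176b. Nr1d1 was still nearest to Tmem176a (0.101), followed by S100a4, Tubb2b, Cpd and Ccr6, while Stom, Tdrkh, Prss12 and Fam20a came at ranks 8, 9, 12 and 13. Nearest to Tmem176b were then Ccr3, Prss12, S100a4, S100a6 and Itga2, so most of the nearest genes turn on that library.

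**Figure D4:**
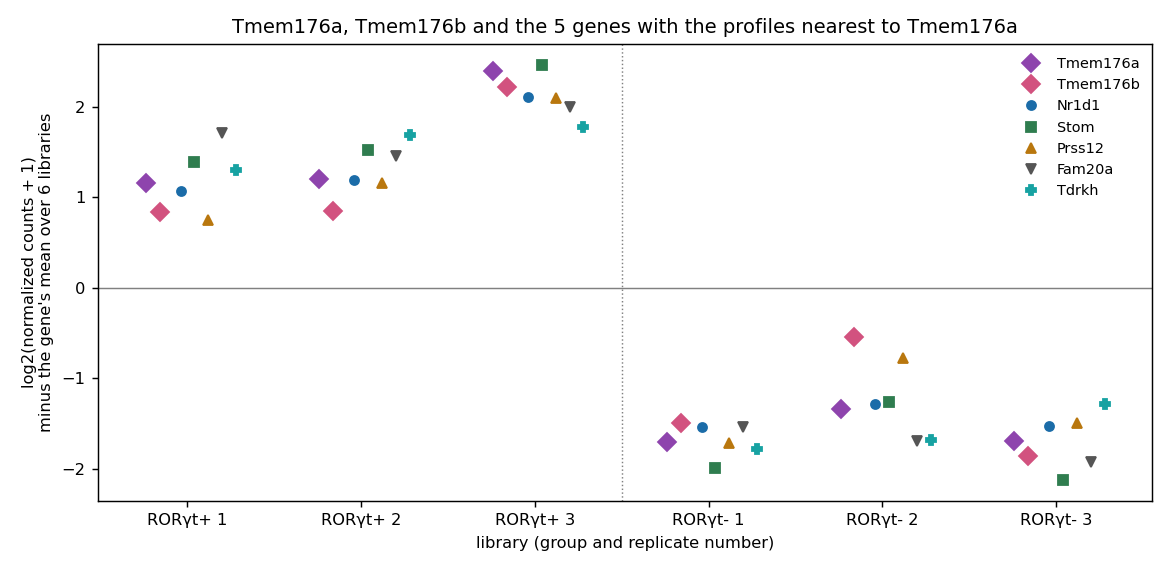
Log2(normalized counts + 1) minus each gene's mean over the 6 libraries, for Tmem176a, Tmem176b and the 5 genes outside the cluster nearest to Tmem176a, 1 point per gene and library. The genes lie above 0 in the RORγt+ libraries and below 0 in the RORγt- libraries, and are highest in RORγt+ replicate 3.

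Among the Gimap genes, Gimap1 and Gimap5, which lie side by side and share windows with Gm28053, were closest at 0.0737. Gimap5 and Gimap7 differed by 0.0940 and Gimap4 and Gimap9, also side by side, by 0.0945. Gimap8 was the farthest Gimap gene from each of the other 7, at 0.297 to 0.441. Distances of Gimap genes to Tmem176a were 1.71 to 1.92, which mostly reflects their differing fold changes. Without RORγt+ replicate 3, Gimap8 was close to Gimap4 (0.0840), Gimap3 and Gimap6 were the closest Gimap genes (0.0598), and Gimap genes lay 1.38 to 1.65 from Tmem176a.

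Of 69 annotated genes within 1000 kb on either side of the cluster, 30 had values. In limma 0 were called, against 0.564% of all genes, and 5 had an unadjusted p under 0.05, against 10.9% of all genes. The median log2 fold change of the 30 was -0.03. All 5 lay within 500 kb, among 15 measured genes there. Of these, chosen by their p, Sspo (-1.57), Zfp862-ps (-0.76), Gm7887 (-0.76) and Ccdc126 (-0.48) had log2 fold changes below 0 and groups without overlap, and Igf2bp3 (3.03) had groups that overlapped. The nearest measured gene before Gimap8 was AI854703, 13.5 kb away, with 17, 39.8 and 75.5 normalized counts in RORγt+ libraries, against 47.6, 52.0 and 57.7 in RORγt- libraries. The nearest after Tmem176a was Gpnmb, which encodes a membrane glycoprotein, 189.5 kb away, with 20.6, 18.6 and 49.2 in RORγt+ libraries, against 11.2, 14.7 and 30.1 in RORγt- libraries. Both neighbours overlapped between the groups.

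**Figure D5:**
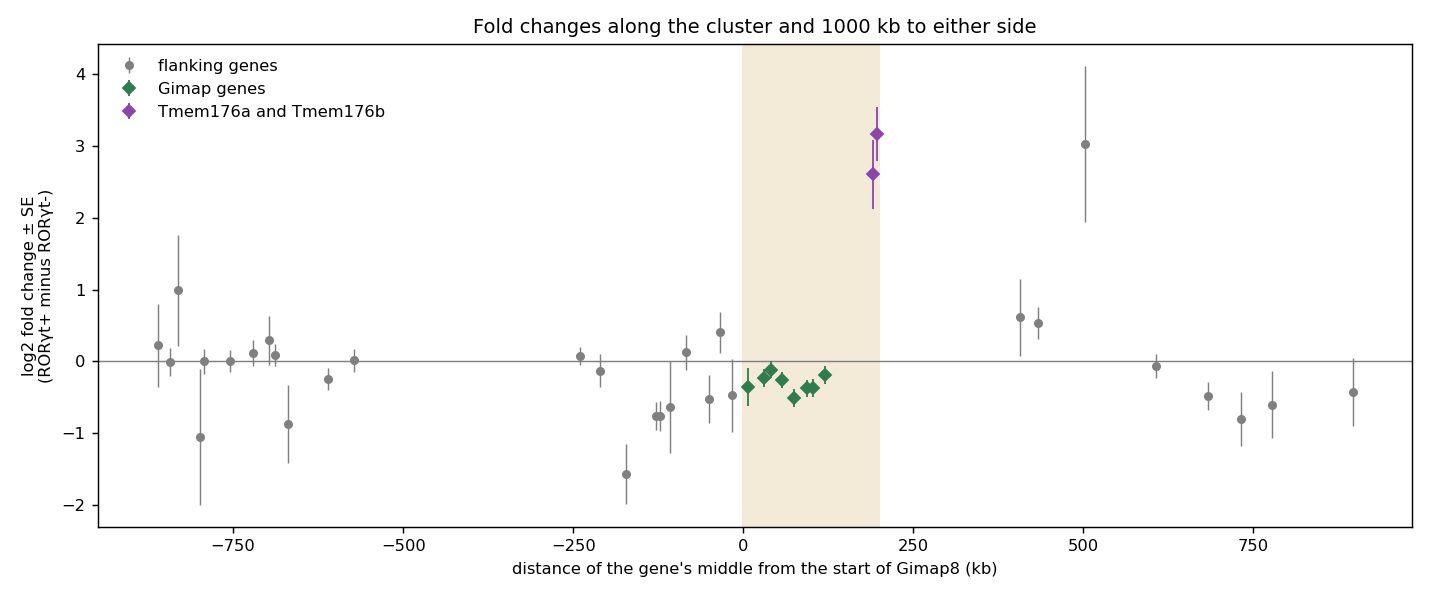
Log2 fold changes (RORγt+ minus RORγt-, ± SE) of the 10 genes and of the 30 measured genes within 1000 kb, against the distance of each gene's middle from the start of Gimap8 in kb. The pair stands at 3.16 and 2.60, the Gimap genes lie just below 0, and the flanking gene at 3.03, Igf2bp3, rests on values of 0 to 36.4 normalized counts.

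Of 18 listed MS4A genes, relatives of the pair, 8 had values and 0 were called in limma, with a median log2 fold change of 0.18. Ms4a6b had 9233 ± 960 normalized counts in RORγt+ Tregs and 8522 ± 357 in RORγt- Tregs (SD, n = 3 each), Ms4a4b 9197 ± 863 and 7807 ± 1004, and Ms4a6c 158 ± 58.7 and 174 ± 43.7. Of 18 BCL2 family genes, survival regulators to which GIMAP proteins have been linked, 16 had values and 0 were called, with a median of -0.01. Mcl1 had 6057 ± 334 in RORγt+ Tregs and 5911 ± 609 in RORγt- Tregs, Bcl2 3062 ± 951 and 3612 ± 174, and Bak1 876 ± 183 and 709.8 ± 74.9. Over that list log2 fold changes ran from -0.84 for Bcl2a1d to 0.91 for Bik, whose mean was 4.73 normalized counts. Groups did not overlap for Bcl2a1b, Bcl2a1d and Bid, lower in RORγt+ Tregs, and for Bad and Bcl2l1, higher there. All 20 genes of lymphocyte quiescence and recirculation had values and 0 were called, with a median of 0.06. Log2 fold changes were -0.06 for Btg1 and -0.22 for the transcription factor gene Tcf7. Over the list they ran from -0.37 for Tsc1 to 0.57 for Klf2.

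Of 22 listed type 17 genes 18 had values, with a median log2 fold change of 1.42. In limma 8 were called higher in RORγt+ Tregs and 0 lower, against 0.32% and 0.245% of all genes. The 8 were Ccr2, Ccr6, Cxcr6, Il17re, Il18r1, Il23r, Ltb4r1 and 5830411N06Rik, most of them receptors, and Ccr6 was part of the RORγt- gate. The list was drawn up with these values known. Stat3, Maf and Rora, which were not called, had log2 fold changes of -0.19, 0.50 and 0.85. Among the genes not called, groups without overlap were lower in RORγt+ Tregs for Batf (-0.54) and higher for Ahr, Cd163l1, Il1r1 and Maf. Leaving out 1 library gave 0 to 8 called type 17 genes, 8 of them without RORγt+ replicate 3 and 0 without RORγt+ replicate 2.

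Myeloid and dendritic cells are known for high Tmem176a and Tmem176b. Of 15 of their markers 9 had values, 0 were called, and 0 were at 0 in all libraries. Their summed level was 778 to 1049 normalized counts in RORγt+ libraries and 596 to 678 in RORγt- libraries, most of it Cst3, which had 631, 634 and 984 in RORγt+ libraries, against 586, 588 and 534 in RORγt- libraries. The sum and Cst3 were highest in RORγt+ replicate 3, where the pair was highest too, and without that library the RORγt+ sums were 778 and 816. Itgam had 55.7, 48.5 and 22.2 in RORγt+ libraries, against 14.3, 14.4 and 17.9 in RORγt- libraries. Lyz2 had 37.0, 81.6 and 9.97 in RORγt+ libraries, against 4.09, 23.6 and 4.10 in RORγt- libraries. Both were lowest of their group in RORγt+ replicate 3, where Xcr1 and Siglech were listed at 0. Csf1r, the receptor gene of macrophage growth factor, was highest there, with 7.56, 5.61 and 9.04 in RORγt+ libraries, against 1.44, 4.99 and 1.15 in RORγt- libraries. Siglech had at most 3.65 in any library, while Xcr1 had 12.8 to 22.8 in the other libraries. RORγt+ replicate 3 was the shallowest library, and the cause of its zeros was not tested. The marker sum of each RORγt+ library lay above that of every RORγt- library, and single markers peaked in different RORγt+ libraries.

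Of 13 markers of γδ T cells and group 3 innate lymphoid cells, which carry type 17 genes too, 12 had values and 0 were at 0 in all libraries. In limma 2 were called higher, Il23r and 5830411N06Rik, which are also in the type 17 list, against 0.32% of all genes. The summed level was 679 to 807 normalized counts in RORγt+ libraries and 414 to 502 in RORγt- libraries. More of it came from Id2 than from any other gene, a regulator of innate lymphoid cells that other T cells also express, with 426 ± 45.5 in RORγt+ Tregs and 288 ± 15.8 in RORγt- Tregs (SD, n = 3 each). Trdc, the δ chain constant region, had 99.8, 89.2 and 109 in RORγt+ libraries, against 51.5, 61.8 and 71.5 in RORγt- libraries. Kit, which was not called, had 16.53, 31.94 and 18.75 in RORγt+ libraries, against 2.99, 1.76 and 6.06 in RORγt- libraries (log2 fold change 2.40). Cd163l1, also in the type 17 list and not called, had a log2 fold change of 2.30 at a mean of 3.06 normalized counts. Blk, Ncr1 and Zbtb16 overlapped between the groups. The sum, Id2, Trdc, Kit, Cd163l1 and the called genes were without overlap and higher in RORγt+ Tregs. The γ chain constant regions were not: Trgc1 had 53.3, 51.4 and 45.1 in RORγt+ libraries, against 36.2, 50.04 and 71.6 in RORγt- libraries, and log2 fold changes were -0.02 for Trgc1, -0.24 for Trgc2 and -0.56 for Trgc4, none called. The part of myeloid, dendritic, γδ T or innate lymphoid cells in the values of the pair was not tested.

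B cells also express GIMAP genes. Of 8 B cell markers 0 were called in limma, and their sum was 7236 to 10800 normalized counts in RORγt+ libraries and 8311 to 10440 in RORγt- libraries, most of it Ighm. Of 10 sort stress and immediate early genes 0 were called, with a sum of 2686 to 4448 in RORγt+ libraries and 4526 to 5166 in RORγt- libraries and a median log2 fold change of -0.80. Of 8 red cell and platelet markers 5 had values and 0 were called, with a sum of 204 to 1222 in RORγt+ libraries and 79.0 to 6110 in RORγt- libraries. Of 7 Treg identity genes 0 were called, with a sum of 44510 to 46690 in RORγt+ libraries and 42740 to 44790 in RORγt- libraries. Ikzf2 had 6358, 6181 and 1435 in RORγt+ libraries, against 4784, 6205 and 7969 in RORγt- libraries, and was lowest in RORγt+ replicate 3. Ctla4 (log2 fold change 0.50), Il2ra (0.42) and Foxp3 (0.20) were without overlap and higher in RORγt+ Tregs, and the other genes of that list overlapped. The stress sums did not overlap between the groups, as the Gimap sums did not, and the part of these genes in the Gimap values was not tested.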

How the data were processed

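RNA was sequenced in bulk from 6 sorted Treg samples, 3 per group. The authors deposited 1 table with a normalized signal per gene and library, written to decimals, so no raw read counts were fitted. Salmon 1.2.0, DESeq2 and GRCm38 appear, without a role or order, per the submitters' processing notes. Annotation and strand setting are not stated. Of 1842 rows without a symbol, 1789 were named from GENCODE M21 (GRCm38).

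Values were fitted as log2(value + 1), unfiltered, in limma 3.58.1 (R 4.3.3) with a group term and trended empirical Bayes. A gene was called at a Benjamini-Hochberg adjusted p under 0.05 over all 15944 genes. Fold changes subtract RORγt- from RORγt+, and low genes change by more than they show. Exon lengths are unions of annotated exons. The fit was tested on simulated data.

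The genes and lists were chosen with earlier results of these data known. Named were all 10 genes, the called and the 3 most abundant other genes of a list, the nearest measured neighbours and the 5 nearest profiles; other genes are named after their values were seen, and 1 gene that the rule names is not reported here. Alternatives were other pseudocounts, scalings, a filter on low values, no trend, array weights, a replicate block, a narrower window and each library left out; profiles and ratios without RORγt+ replicate 3 were added after seeing the data.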

Additional observations from a re-analysis of the deposited data

How the results depend on the processing

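All 10 genes kept the sign of their fold change with pseudocounts of 0.1 and 5, equal column totals, equal upper quartiles, array weights and each library left out. A mean of at least 10, no variance trend and the replicate block leave these fold changes as they are by construction and bear only on the calls. The median over all genes moved by less than 0.1 on the log2 scale under each setting. With array weights, which gave RORγt+ replicate 3 a weight of 0.199, 358 genes were called in place of 90, 2 of the 10 genes were called higher, with Tmem176b at a log2 fold change of 2.17 (limma adjusted p = 0.0353), and 1 lower, Gimap7 (-0.56, adjusted p = 0.0356). The Gimap median was then -0.27, and 1 flanking gene, Zfp862-ps, was called. Equal upper quartiles gave a Gimap median of -0.36. With the replicate block 1 gene was called in all and 0 of the 10, and Tmem176a kept its log2 fold change of 3.16 with an adjusted p of 0.144. The labels do not say whether same-numbered libraries belong together. Deviations of same-numbered libraries correlated at -0.105, -0.022 and -0.184, which cannot decide it with 3 libraries per group. Leaving out 1 library gave 4 to 174 calls over all genes and 0 to 1 of the 10 genes higher. Tmem176a then had log2 fold changes of 2.76 to 3.38 (adjusted p 0.0140 to 0.133), Tmem176b 2.14 to 2.98 (0.0734 to 0.366), and the Gimap median was -0.32 to -0.28. The cause of these differences was not tested. Depth limits Tmem176a and Tmem176b in RORγt- Tregs, which rest on 18 to 79 reads per library.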
